A study of Rattus norvegicus with 32 samples.

Results

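The genes that mark microglia, the resident macrophages of the brain, were followed together with the genes of complement C1q in the hippocampus of young adult rats. The set comprised 10 symbols, Aif1, Cx3cr1, P2ry12, Csf1r, Tmem119, C1qa, C1qb, C1qc, Trem2 and Itgam, which were chosen by name and matched to the symbol in each row name of the raw count tables for males and females. Of these 10 genes, 9 were found, each in 1 row of the 32883 in either table, and no row carried the symbol Itgam.

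Hippocampal RNA was sequenced from 32 Sprague-Dawley rats aged 65 days, 4 per sex and diet group. IS rats were born to dams on an iron-sufficient diet and served as controls. ISch rats were likewise iron-sufficient, and their dams received extra choline in later gestation. FID rats were formerly iron-deficient, since their dams ate an iron-deficient diet from early gestation to the first postnatal week, and FIDch rats had the same iron deficiency together with the choline given to the dam. All rats ate iron-sufficient diet after that first postnatal week, so that the measurements concern adult brains after iron repletion. Every male library belonged to sequencing batch I and came from RNA isolated with the RNAqueous kit, and every female library belonged to batch II and came from RNA isolated with the RNeasy Midi kit. Sex, batch and isolation kit therefore cannot be told apart, and levels were compared between diets within each sex. The totals ranged from 3515806 to 9517503 counts in the 16 male libraries and from 18439999 to 26616318 in the 16 female libraries, so that female values carried less counting error. Levels are given as CPM, counts scaled to the size of each library with TMM factors over the 16 libraries of a sex.

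Microglia survey the brain, clear debris and synapses, and depend on signals from neurons through receptors at their surface. C1q starts the classical pathway of complement. It is a large complex assembled from A, B and C chains, the products of C1qa, C1qb and C1qc, and in the brain it comes mostly from microglia and tags synapses and debris for removal. Whole hippocampus mixes all cell types, and fewer microglia cannot be told apart from less RNA of a gene in each microglial cell.

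Some libraries stood apart. In the labels, 3 male libraries, ISch replicates 1 and 2 and FIDch replicate 2, carry sample names of another form than the other 13. P2ry12 read 11.1, 10.7 and 8.76 CPM in these 3 and between 17.4 and 27.1 CPM in the other 13, without overlap. C1qa went the opposite way, with 34.5 to 38.1 CPM in the 3 against 21.1 to 33.0 CPM in the other 13, again without overlap. In the RefSeq annotation of assembly GRCr8, 2 of the 9 genes overlap another gene, P2ry12 with Med12l and Cx3cr1 with LOC134480114, and the counting of reads in shared stretches is not stated for either. Med12l, looked up after these values were seen, read 38.7 to 50.9 CPM in the 3 and 20.1 to 41.1 CPM in the 13. FIDch replicate 2 also had the smallest total of all, 3515806 counts. Among females, FID replicate 2 held reads of Y-linked genes. Eif2s3y, Kdm5d and the other Y-linked genes listed summed to 25.7 CPM in it, which is 19.8% of the male mean, against at most 0.527 CPM in the other 15 female libraries. In male FID replicate 4, genes of choroid plexus summed to 431 CPM, of which Ttr, the most abundant, made 350 CPM, against a sum of at most 23.3 CPM in the other 15 male libraries. Female FIDch replicate 4 differed from the other 3 FIDch females by a chi-square per gene of 22.4 to 25.2, where the other pairs of replicates had at most 14.3, and it had the highest sum of blood genes among females, 312 CPM. The 9 genes were refitted without these libraries, and so were the named genes of the lists further below, as alternatives of which those for the 3 libraries and for the lists were chosen after seeing the data.

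**Figure D1:**
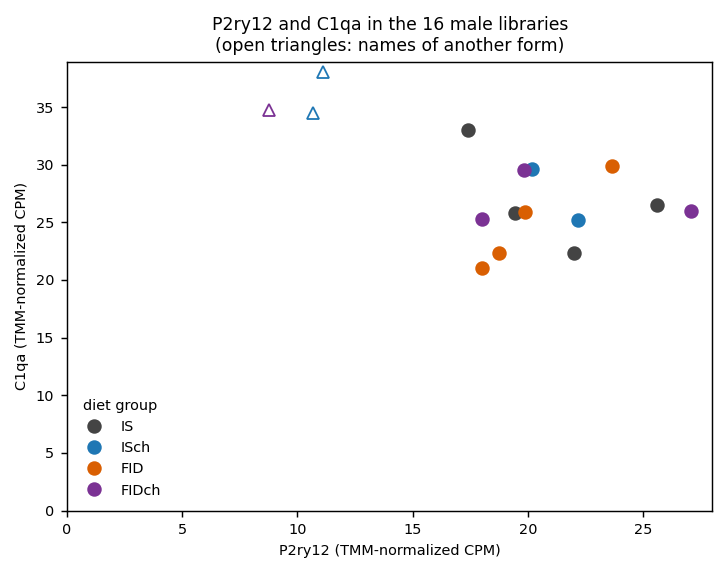
P2ry12 (horizontal axis) and C1qa (vertical axis) in each of the 16 male libraries, both in TMM-normalized CPM, coloured by diet group. The 3 open triangles, libraries with sample names of another form, lie at 8.76 to 11.1 CPM for P2ry12 and 34.5 to 38.1 CPM for C1qa, apart from the other 13.

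The C1q genes lie side by side. In the RefSeq annotation, C1qc has C1qb and C1qa as its neighbours on chromosome 5, and no other gene overlaps any of the 3. RefSeq promoters, 300 bases each on build GRCr8, were found for 5 of the 9 genes, C1qa, C1qb, Csf1r, Cx3cr1 and Trem2. They were searched on both strands for GAGGAA, the core letters bound by PU.1, the product of Spi1 and a main transcription factor of microglia. The letters occur in 27.6% of the 33469 promoters of the table and in 3 of these 5, namely C1qb, Csf1r and Trem2. The promoters of C1qa and C1qb are shown since the C1q genes varied together across male libraries, and those of Csf1r and Cx3cr1 since every female FIDch library lay below every IS and FID female for both receptors. They read 5′ to 3′ on the strand of the gene, with each match, GAGGAA or its reverse complement, in capitals. A match is a description of the letters only, and the search for TATAAA found none in the 5 promoters, against 14.2% of the table.
C1qa, chr5:154419884-154420183, minus strand: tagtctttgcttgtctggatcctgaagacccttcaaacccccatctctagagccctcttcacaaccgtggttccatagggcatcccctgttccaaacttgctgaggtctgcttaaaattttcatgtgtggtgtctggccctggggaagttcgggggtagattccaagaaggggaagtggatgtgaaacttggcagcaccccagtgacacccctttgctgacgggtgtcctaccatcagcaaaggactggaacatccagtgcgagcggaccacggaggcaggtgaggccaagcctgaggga
C1qb, chr5:154407778-154408077, minus strand: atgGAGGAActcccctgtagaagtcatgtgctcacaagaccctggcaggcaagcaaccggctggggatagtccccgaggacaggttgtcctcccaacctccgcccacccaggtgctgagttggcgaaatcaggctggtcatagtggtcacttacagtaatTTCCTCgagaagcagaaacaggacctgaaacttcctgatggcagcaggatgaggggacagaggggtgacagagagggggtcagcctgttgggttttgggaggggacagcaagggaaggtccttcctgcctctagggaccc
Csf1r, chr18:56834129-56834428, plus strand: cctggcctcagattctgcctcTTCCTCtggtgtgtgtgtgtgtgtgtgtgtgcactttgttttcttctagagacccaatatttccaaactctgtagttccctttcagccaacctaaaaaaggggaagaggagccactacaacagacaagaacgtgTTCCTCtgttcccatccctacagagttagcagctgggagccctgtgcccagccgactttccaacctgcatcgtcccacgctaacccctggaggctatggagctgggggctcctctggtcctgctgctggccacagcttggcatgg
Cx3cr1, chr8:128677017-128677316, minus strand: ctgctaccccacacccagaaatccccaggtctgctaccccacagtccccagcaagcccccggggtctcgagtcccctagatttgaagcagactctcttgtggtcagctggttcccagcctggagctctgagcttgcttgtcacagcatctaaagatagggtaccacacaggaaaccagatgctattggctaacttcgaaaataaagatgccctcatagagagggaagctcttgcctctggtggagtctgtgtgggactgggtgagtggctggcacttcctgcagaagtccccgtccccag

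Of the C1q genes, C1qc had the highest coefficient of variation among male FID rats, 30.6%. In males it read 14.8, 13.2, 12.7 and 11.7 CPM in IS, 18.6, 17.1, 10.8 and 12.3 CPM in ISch, 8.86, 14.1, 11.8 and 6.84 CPM in FID and 15.5, 12.4, 13.8 and 15.5 CPM in FIDch. The 2 lowest libraries were FID replicates 4 and 1, the 2 highest were the ISch libraries with names of another form, and FID overlapped with every other group. In females C1qc read 23.0, 20.4, 17.6 and 19.7 CPM in IS, 18.5, 14.1, 18.0 and 17.1 CPM in ISch, 17.0, 20.6, 21.5 and 21.4 CPM in FID and 19.3, 18.3, 19.6 and 20.01 CPM in FIDch. The lowest female value was that of ISch replicate 2, FID replicate 1 at 17.0 CPM lay below the other 3 ISch libraries, and ISch overlapped with IS through 1 IS library at 17.6 CPM.

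For C1qb, the male values were 26.1, 18.7, 20.6 and 20.4 CPM in IS, 21.6, 28.2, 16.1 and 20.9 CPM in ISch, 18.7, 21.5, 18.9 and 15.0 CPM in FID and 23.0, 21.5, 22.4 and 21.0 CPM in FIDch. FID held the lowest library, replicate 4, and the FIDch libraries were tight at 22.0 ± 0.897 CPM (SD, n = 4), with FID replicate 2 reaching into them. Female values of C1qb lay between 30.5 and 37.2 CPM in all 16 libraries, and the 4 groups overlapped.

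C1qa, which encodes the A chain, read 33.0, 25.8, 26.5 and 22.3 CPM in male IS, 38.1, 34.5, 25.2 and 29.6 CPM in ISch, 21.1, 29.9, 25.9 and 22.3 CPM in FID and 29.5, 34.8, 26.0 and 25.3 CPM in FIDch. All 4 male groups overlapped. In females it read 49.5, 45.0, 47.4 and 48.9 CPM in IS, 38.6, 40.5, 48.0 and 48.5 CPM in ISch, 43.3, 45.8, 49.3 and 46.8 CPM in FID and 41.4, 41.2, 43.9 and 39.8 CPM in FIDch. Every female FIDch library lay below every IS library, while FID reached into FIDch with replicate 1 at 43.3 CPM.

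Cx3cr1, the receptor of the neuronal chemokine fractalkine, showed little spread among female controls. Female IS libraries read 23.4, 23.4, 23.1 and 23.6 CPM, ISch libraries 22.1, 18.1, 19.7 and 19.7 CPM, FID libraries 23.4, 21.9, 25.3 and 25.6 CPM and FIDch libraries 18.0, 21.7, 20.5 and 16.9 CPM. The groups given choline were both low, ISch below IS and FIDch below IS and FID, in each case with no overlap. Male values were 19.0, 22.6, 24.5 and 24.2 CPM in IS, 22.4, 20.4, 24.3 and 25.0 CPM in ISch, 21.6, 25.9, 23.2 and 18.7 CPM in FID and 22.3, 15.3, 20.5 and 19.4 CPM in FIDch. The male groups overlapped, and the lowest value, 15.3 CPM, came from FIDch replicate 2, the library of the smallest total.

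P2ry12, a receptor for nucleotides that steers microglial processes to damaged cells, read 12.4, 12.9, 15.8 and 11.97 CPM in female IS, 11.1, 8.54, 10.4 and 9.93 CPM in ISch, 12.7, 12.03, 13.1 and 12.1 CPM in FID and 8.87, 10.4, 11.6 and 13.1 CPM in FIDch. All ISch females were lower than all IS females, and FIDch overlapped with each of the other 3 groups. In males it read 17.4, 19.4, 25.6 and 22.0 CPM in IS, 11.1, 10.7, 22.2 and 20.2 CPM in ISch, 18.0, 23.6, 19.9 and 18.7 CPM in FID and 19.8, 8.76, 27.1 and 18.0 CPM in FIDch. The 3 low values are those of the libraries with names of another form, and the other 2 ISch libraries lay within the range of IS.

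Csf1r, the receptor for the growth factors that keep microglia alive, read 113, 108, 106 and 110.3 CPM in female IS, 111, 92.6, 98.3 and 101 CPM in ISch, 104, 105, 111 and 119 CPM in FID and 94.7, 97.3, 99.7 and 93.9 CPM in FIDch. The FIDch females lay below every IS and every FID female, and ISch overlapped with IS through replicate 1. In males Csf1r read 92.6, 99.2, 96.6 and 95.8 CPM in IS, 98.0, 94.7, 94.3 and 91.5 CPM in ISch, 84.2, 100.7, 99.3 and 80.1 CPM in FID and 96.1, 96.9, 100.3 and 97.9 CPM in FIDch. FID again held the 2 lowest males, replicates 4 and 1, the same libraries that were lowest for C1qc.

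The remaining 3 genes showed no separation of any pair of groups. Trem2, a lipid-sensing receptor that signals through Tyrobp, lay between 5.40 and 8.67 CPM in males and between 6.55 and 10.9 CPM in females. Its counts were low, 26 to 73 per male library, which limits what could be seen. Tmem119, a membrane protein that distinguishes microglia from other macrophages, ranged from 12.2 to 25.3 CPM in males and from 10.4 to 21.1 CPM in females, the highest female being ISch replicate 3. Aif1, which encodes the calcium-binding protein IBA1 used to stain microglia, ranged from 10.1 to 15.8 CPM in males and from 8.21 to 13.3 CPM in females. Each of the 9 genes had counts in every library, from at least 26 in males and 138 in females. The median coefficient of variation within male groups was lowest for Csf1r, 2.83%, and highest for P2ry12, 27.0%, and within female groups it ran from 4.44% for Csf1r to 13.2% for Trem2.

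**Figure D2:**
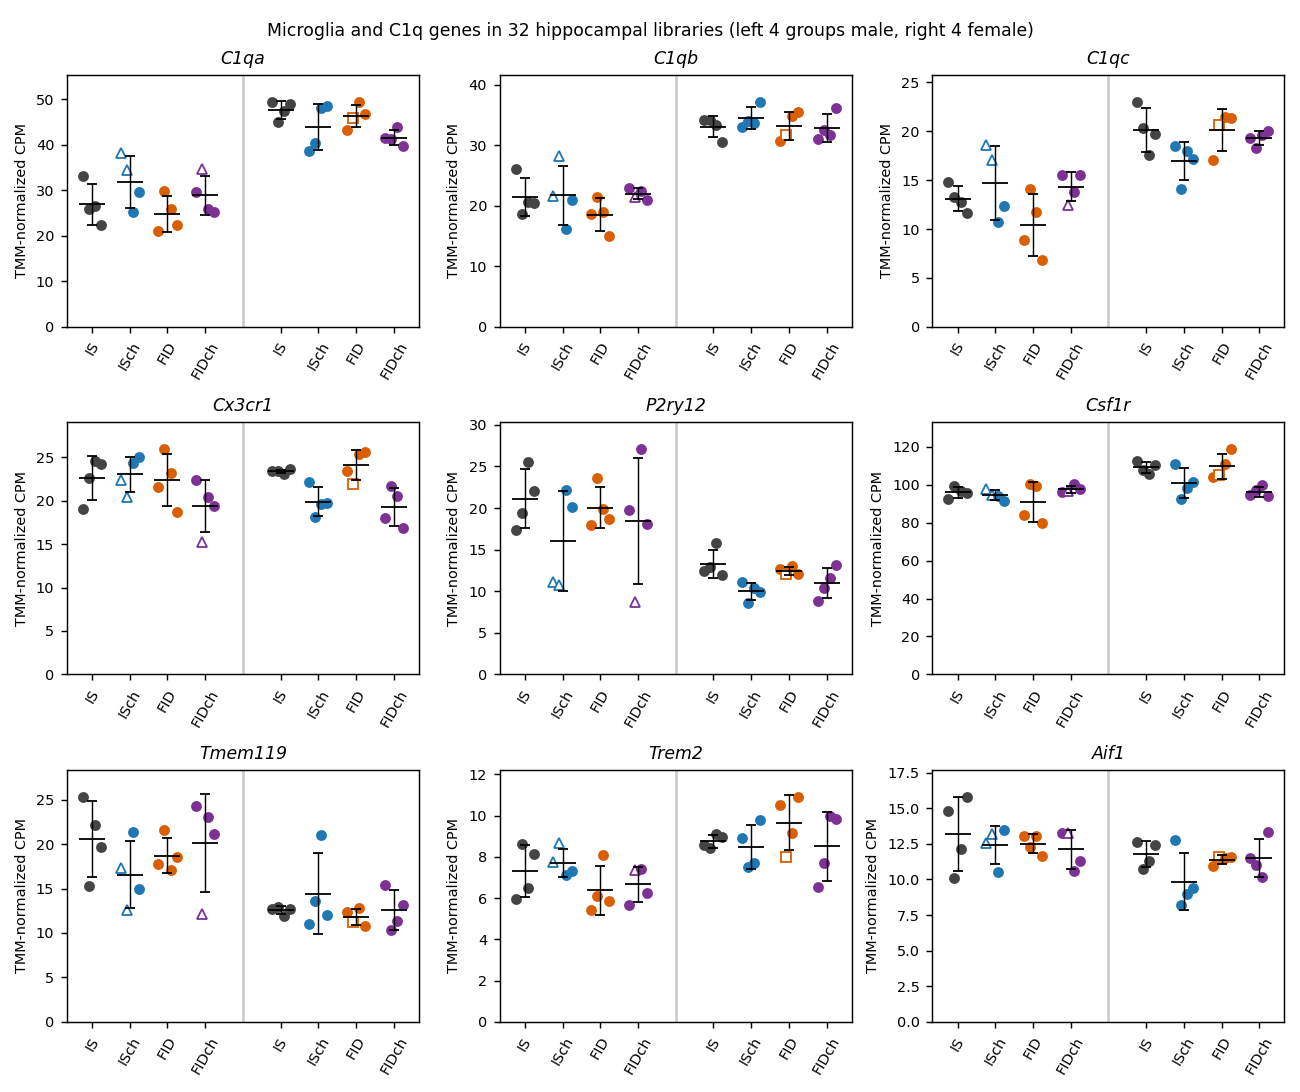
TMM-normalized CPM of the 9 genes in each of the 32 libraries by diet group, males on the left and females on the right of each panel, with group mean and SD (black). Open triangles mark the 3 male libraries with names of another form and the open square female FID replicate 2. The female FIDch libraries of Cx3cr1 and Csf1r lie below all IS and FID females.

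The first comparison sets formerly iron-deficient rats against controls. In each sex FID, ISch and FIDch were compared with the same 4 IS libraries, so these 3 comparisons share their controls. In males, FID against IS, 0 of the 9 genes met the criterion taken from the study, a log2 fold change beyond 0.2 in either direction with an unadjusted p under 0.05, against 4.62% of the 13851 genes tested. All 9 had a negative log2 fold change, with a median of -0.12 against -0.01 over all genes, but Aif1, C1qa, P2ry12 and Cx3cr1 turned positive in at least 1 alternative each, and the median was -0.07 without FID replicate 4, the library with choroid plexus genes. The most negative was C1qc at -0.33 ± 0.19 (standard error), followed by C1qb at -0.22 ± 0.13, and C1qa stood at -0.12 ± 0.14. Without FID replicate 2, the FID male with the highest C1qc, C1qc reached -0.52 and met the criterion, while without FID replicate 4 it was at -0.17 and C1qb at -0.12. By edgeR's quasi-likelihood test and Benjamini-Hochberg adjustment, 0 of the 9 and 0% of all genes had an adjusted p under 0.05, while 0 of the 9 had an unadjusted p under 0.05, and DESeq2 placed 0 of the 9 at the criterion. In females, FID against IS, 0 of the 9 genes met the criterion, against 6.47% of 14632 genes. By edgeR's quasi-likelihood test and Benjamini-Hochberg adjustment, 0 of the 9 had an adjusted p under 0.05, against 0.191% of all genes, 0 had an unadjusted p under 0.05, and DESeq2 gave 0 at the criterion. The female median was -0.00, and the log2 fold changes ran from -0.09 (Tmem119 and P2ry12) to 0.14 (Trem2). When the female FID library with Y-linked reads was left out, Trem2 moved to 0.22 and met the criterion.

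The second comparison concerns choline given to iron-sufficient dams. In females, ISch against IS, 3 of the 9 genes met the criterion, all lower in ISch, against 10.3% of 14466 genes in both directions. P2ry12 was lower by a log2 fold change of -0.41 ± 0.11 and Cx3cr1 by -0.23 ± 0.07. C1qc stood at -0.25 ± 0.10. Their unadjusted p-values were 0.00381, 0.00635 and 0.0350, and the adjusted ones 0.0940, 0.121 and 0.264 by edgeR's quasi-likelihood test and Benjamini-Hochberg adjustment, so that 0 of the 9 passed 0.05, where 2.54% of all genes did, and 3 had an unadjusted p under 0.05. By the 2-sided exact permutation test of CPM, p was 0.0286 for P2ry12 and for Cx3cr1, the smallest that 4 against 4 can give, and 0.0857 for C1qc. The adjusted p of P2ry12 ranged from 0.0343 to 0.219 over the alternatives, and it kept the criterion in all 15 of them. The adjusted p of Cx3cr1 ranged from 0.0356, without ISch replicate 1 (-0.29), to 0.290, and its call ended without ISch replicate 2, where its log2 fold change was -0.19. The call of C1qc ended in 5 of the 8 fits that left out a library, those without IS replicate 1, 2 or 4 or without ISch replicate 2 or 4, with log2 fold changes from -0.26 to -0.17 in these 5. The median of the 9 genes was -0.12 against -0.00 for all genes. Aif1 had a log2 fold change of -0.26 ± 0.13 that missed the criterion, which it met with the 4 diet groups in one fit (-0.25) and with a replicate block (-0.28). Without ISch replicate 1, Aif1 reached -0.41 with an adjusted p of 0.0375 by edgeR's quasi-likelihood test and Benjamini-Hochberg adjustment, against 0.374 with all libraries and a range from 0.0375 to 0.632 over the alternatives.

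In males, ISch against IS, 0 of the 9 genes met the criterion, against 8.06% of 13956 genes. By edgeR's quasi-likelihood test and Benjamini-Hochberg adjustment, 0 of the 9 had an adjusted p under 0.05, against 0.208%, 0 had an unadjusted p under 0.05, and DESeq2 gave 0 at the criterion. P2ry12 had the most negative log2 fold change, -0.39 ± 0.22, and C1qa the most positive, 0.24 ± 0.14. Without the libraries with names of another form, which leaves 2 ISch males, P2ry12 was at 0.00 and C1qa at 0.02, and the median of the 9 genes was -0.05 in place of 0.01. Leaving out ISch replicate 3 or 4 instead gave P2ry12 at -0.57 or -0.53 and a call, and C1qa met the criterion without IS replicate 1 (0.36) or ISch replicate 3 (0.34). Tmem119 stood at -0.32 ± 0.17 and met the criterion without IS replicate 2 (-0.45) or ISch replicate 3 (-0.46), while it was at -0.20 without the 3 libraries with names of another form.

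Formerly iron-deficient rats with choline were next set against controls. Among females, FIDch against IS, 1 of the 9 genes met the criterion, against 8.98% of 14662 genes. Cx3cr1 was lower, with a log2 fold change of -0.28 ± 0.08 (p = 0.00697, adjusted p = 0.190 by edgeR's quasi-likelihood test and Benjamini-Hochberg adjustment, exact permutation p = 0.0286), and the call held in every alternative run, from -0.34 to -0.22, the latter without FIDch replicate 4. By edgeR 0 of the 9 had an adjusted p under 0.05, where 0.907% of all genes did, and 3 had an unadjusted p under 0.05. C1qa at -0.20 ± 0.05 and Csf1r at -0.18 ± 0.04 had smaller unadjusted p-values in edgeR's quasi-likelihood test, 0.00325 and 0.00176, with no overlap between the groups, but stayed inside the limit on the fold change. C1qa crossed that limit with RLE size factors, with the stricter filter on low counts and without any of 3 libraries (IS replicates 2 and 3, FIDch replicate 3). In 8 of the 9 genes the log2 fold change was negative, the exception being Tmem119 at 0.00, and the median was -0.06, which became -0.12, -0.11, -0.13 and -0.13 without IS replicate 3 and FIDch replicates 1, 3 and 4. P2ry12 at -0.27 ± 0.13 met the criterion only without FIDch replicate 4 (-0.37) or with the 4 diet groups in one fit (-0.27).

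Among males, FIDch against IS, 0 of the 9 genes met the criterion, against 6.12% of 13693 genes. By edgeR's quasi-likelihood test and Benjamini-Hochberg adjustment, 0 of the 9 had an adjusted p under 0.05, against 0.131%, 0 had an unadjusted p under 0.05, and DESeq2 gave 0 at the criterion. The log2 fold changes lay between -0.19 (Cx3cr1) and 0.14 (C1qc), and Cx3cr1 met the criterion without IS replicate 1, at -0.26. Without FIDch replicate 2, the male with the lowest Cx3cr1, Cx3cr1 was at -0.12, the count remained 0 and the median of the 9 genes was 0.03.

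The last comparison is that of choline among formerly iron-deficient rats. In males, FIDch against FID, 2 of the 9 genes met the criterion, both C1q genes and both higher in FIDch, against 13% of 13945 genes in both directions. C1qc was higher by 0.46 ± 0.18 on the log2 scale (p = 0.0271, adjusted p = 0.221) and C1qb by 0.24 ± 0.11 (p = 0.0471, adjusted p = 0.274), both by edgeR's quasi-likelihood test and Benjamini-Hochberg adjustment, and the exact permutation p was 0.0857 for each. C1qa stood at 0.18 ± 0.12. By edgeR 0 of the 9 had an adjusted p under 0.05, where 1.28% of all genes did, and 2 had an unadjusted p under 0.05. The call of C1qc ended without FID replicate 1 or 4 or without FIDch replicate 1 or 4, with log2 fold changes from 0.30 to 0.65 over the libraries left out. Without FID replicate 4, the library with Ttr, C1qc was at 0.30 and C1qb at 0.15, and Cx3cr1 met the criterion at -0.27. Without FIDch replicate 2, C1qc was at 0.50, C1qb missed the criterion at 0.25 and Tmem119 met it at 0.28. C1qb also missed the criterion without FID replicate 1 or 3 (0.24 and 0.25), without FIDch replicate 1 or 3 (0.22 and 0.23), with DESeq2 and with the 4 diet groups in one fit, and C1qa met it at 0.29 without FID replicate 2.

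In females, FIDch against FID, 1 of the 9 genes met the criterion, against 12.7% of 14680 genes. Cx3cr1 was lower in FIDch, at -0.32 ± 0.09 on the log2 scale (p = 0.00431, adjusted p = 0.0926 by edgeR's quasi-likelihood test and Benjamini-Hochberg adjustment, exact permutation p = 0.0286), and this call held in every alternative run, with adjusted p-values from 0.0356 to 0.227. By edgeR 0 of the 9 had an adjusted p under 0.05, where 2.28% of all genes did, and 3 had an unadjusted p under 0.05. Csf1r at -0.19 ± 0.05 (adjusted p = 0.0890) and C1qa at -0.16 ± 0.06 (adjusted p = 0.158 by edgeR's quasi-likelihood test) stayed inside the limit on the fold change, and Csf1r did not overlap between the groups. Without the FID library that held Y-linked reads, Cx3cr1 was at -0.36 and Csf1r met the criterion at -0.21, as it did without FID replicate 1 or FIDch replicate 3, while P2ry12 met it at -0.28 without FIDch replicate 4. Without FIDch replicate 1 the median of the 9 genes was -0.08. The median of the 9 genes was -0.16 against -0.00 over all genes, and 7 of the 9 were negative. FIDch takes part in this comparison and in that with IS, so the lower Cx3cr1 in both comes from the same 4 libraries. Over all comparisons, DESeq2 gave 4 values of the 9 genes with an adjusted p under 0.05, P2ry12 in female ISch against IS, Csf1r in female FIDch against IS and against FID, and Cx3cr1 in female FIDch against FID. The adjusted p of Csf1r ranged from 0.0126 to 0.310 over the alternatives in FIDch against IS and from 0.0314 to 0.219 in FIDch against FID.

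**Figure D3:**
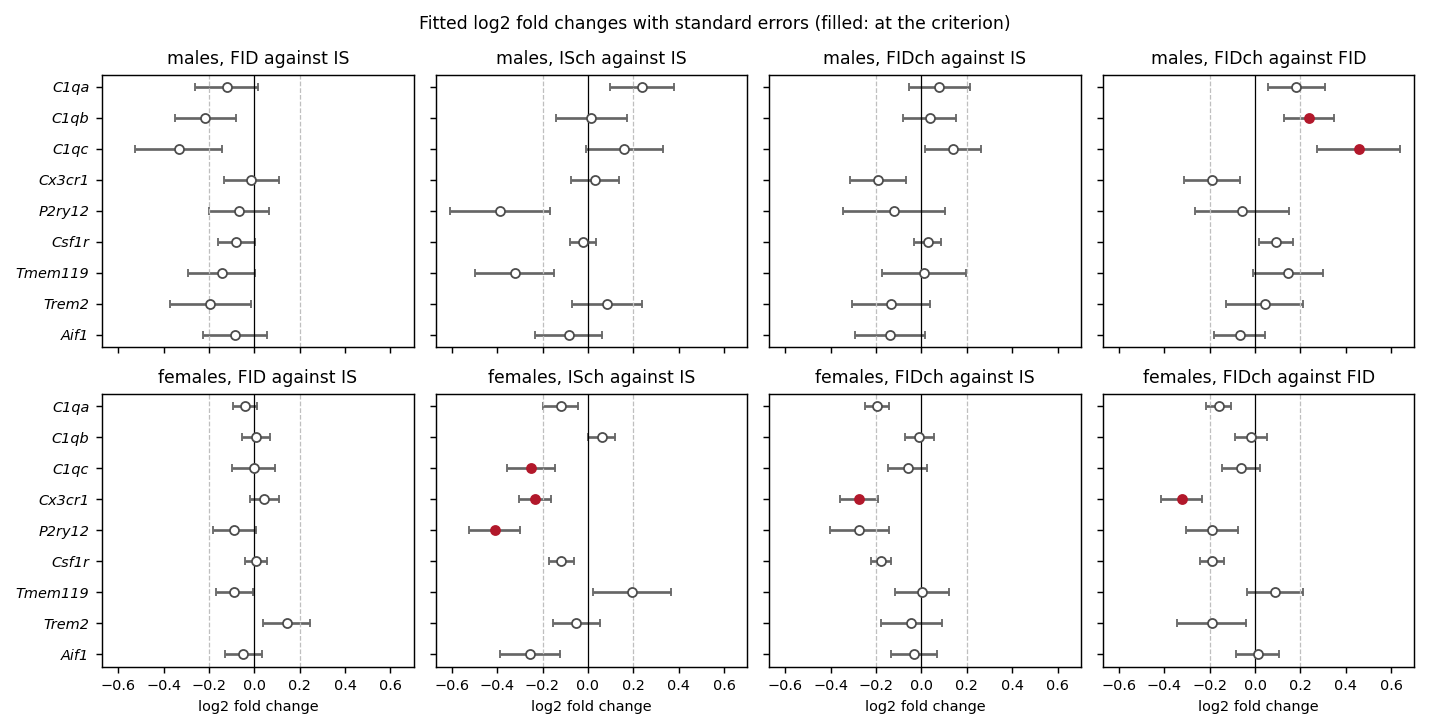
Fitted log2 fold changes of the 9 genes in the 4 comparisons of diet groups, males above and females below, with standard errors; filled points met the criterion and dashed lines mark a log2 fold change of 0.2 in either direction. Filled points are C1qb and C1qc in males (0.24 and 0.46, FIDch against FID) and C1qc, Cx3cr1 and P2ry12 in females.

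The difference between the choline comparisons, in formerly iron-deficient and in iron-sufficient rats, was tested as an interaction over the 16 libraries of a sex. In males 0 of the 9 genes met the criterion, against 14.4% of 14314 genes, and in females 0 of the 9, against 7.33% of 14975 genes. By edgeR's quasi-likelihood test and Benjamini-Hochberg adjustment, 0 of the 9 had an adjusted p under 0.05 in either sex, against 0.00699% of all genes in males and 0.00668% in females, 0 had an unadjusted p under 0.05, and DESeq2 gave 0 at the criterion. The male values were largest for Tmem119, at 0.47 ± 0.26, P2ry12, at 0.33 ± 0.34, and C1qc, at 0.30 ± 0.27. When the 3 male libraries with names of another form were left out, P2ry12 was at 0.10, so that its place among the largest rests on them, while C1qc reached 0.68 and C1qb 0.45 and both met the criterion. Tmem119 met the criterion at 0.59, 0.62 or 0.61 without IS replicate 2, ISch replicate 3 or FIDch replicate 2. The female values ran from -0.14 for Trem2 to 0.27 for Aif1, and Aif1 met the criterion at 0.42 without ISch replicate 1.

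The effects of diet were also set against each other between the sexes, a difference that equally separates batches and kits. For FID against IS, 0 of the 9 genes met the criterion, against 7.64% of all genes. By edgeR's quasi-likelihood test and Benjamini-Hochberg adjustment, 0 had an adjusted p under 0.05, against 0.0396%, 0 had an unadjusted p under 0.05, and DESeq2 gave 0 at the criterion. Trem2 met it without male IS replicate 1 (0.43) or male FID replicate 3 (0.47), and C1qc without male FID replicate 2 (0.50). For ISch against IS, 2 of 9 met it, against 14.2% (1.28% by adjusted p). C1qa stood at -0.36 ± 0.17 and Cx3cr1 at -0.27 ± 0.12, the log2 fold change being the more negative in females. Without the 3 male libraries with names of another form, C1qa stood at -0.15 and missed the criterion, Cx3cr1 was at -0.37, and P2ry12 met it at -0.42. For FIDch against IS, 1 of 9 met it, Csf1r at -0.20 ± 0.06, against 12.9% of all genes (0.362% by adjusted p). For FIDch against FID, 4 of 9 met it, against 17.7% (2.88% by adjusted p). These were C1qc at -0.54 ± 0.21, C1qa at -0.36 ± 0.14, Csf1r at -0.30 ± 0.10 and C1qb at -0.28 ± 0.13. Each had a positive log2 fold change in males and a negative one in females. The female values of C1qb, -0.02 ± 0.07, and C1qc, -0.06 ± 0.08, lay within their standard errors of 0. That of C1qb reached 0.02 over the alternatives. In the difference between the sexes, C1qb missed the criterion in 6 of the 7 settings other than leaving out single libraries. Among them were DESeq2 (-0.26) and the fit without the 3 male libraries (-0.29). It also missed it in 12 of the 16 fits that left out a library. The adjusted p-values of these 4 ranged from 0.0904 to 0.259 by edgeR's quasi-likelihood test and Benjamini-Hochberg adjustment, and 0 of the 9 genes passed 0.05 in any of the 4 differences, where 0, 2, 1 and 4 of them had an unadjusted p under 0.05. The calls of C1qc and Csf1r in FIDch against FID held in all alternatives, and that of C1qa ended only without female FID replicate 3 (-0.30). The other 4 ended in 6 to 12 of the 16 fits that left out a library.

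**Figure D4:**
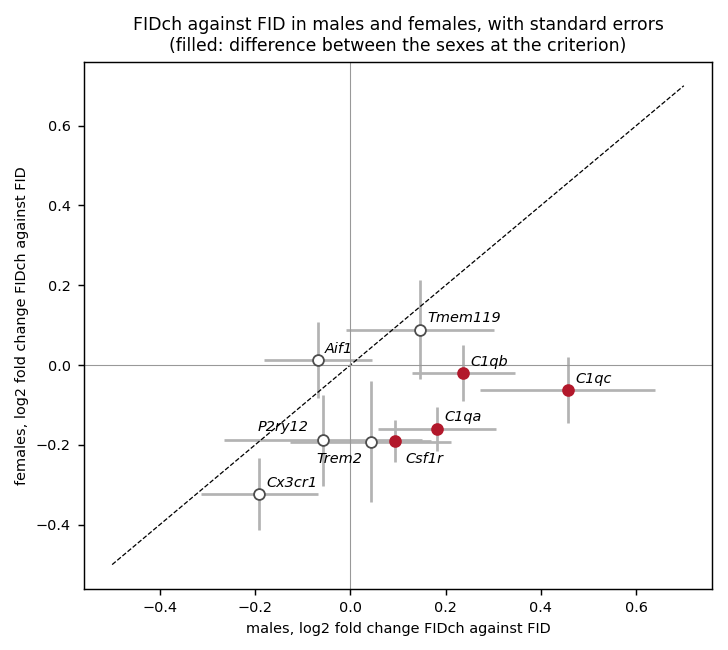
Log2 fold change of FIDch against FID in males (horizontal axis) and females (vertical axis) for the 9 genes, with standard errors; the dashed line marks equal values and filled points are genes whose difference between the sexes met the criterion. C1qa, C1qb, C1qc and Csf1r lie right of 0 in males and below 0 in females, where C1qb and C1qc are within their standard errors of 0.

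Across libraries the 9 genes did not move as a block. After subtracting the group means, Pearson's r between genes over the 16 libraries of a sex, which share depth and dissection, had a median of 0.07 over the 36 pairs in males and 0.15 in females. The 3 pairs of C1q genes had r between 0.65 and 0.74 in males, and between 0.74 and 0.77 over the 13 male libraries with names of the common form. In females these pairs had r between 0.25 and 0.35. Csf1r went with C1qc in both sexes, with r of 0.72 in males and 0.67 in females, and with Cx3cr1 at 0.49 and 0.75. C1qa and P2ry12 had r = -0.58 over the 16 males, which came to -0.03 over the 13 libraries, and P2ry12 and Cx3cr1 had r = 0.78 over 16 and 0.60 over 13. As a description of likeness, 13852 other genes were compared with the mean standardized course of the 9, taking the lower r of both sexes. Fcer1g, an adaptor of Fc receptors in microglia, was nearest with 0.72, and Spi1, which encodes PU.1, came after 1 other gene with 0.66. Between and after them stood AABR07064000.1 (0.67), Mak16 (0.65), Dusp22 (0.64), Ecsit (0.61), Tceal3 (0.60), Fgfrl1 (0.60), Zbed5 (0.59) and R3hdm4 (0.58). Fcer1g and Spi1 are also in the list of other microglia genes, and 30 of the 13852 genes had a lower r above 0.5.

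**Figure D5:**
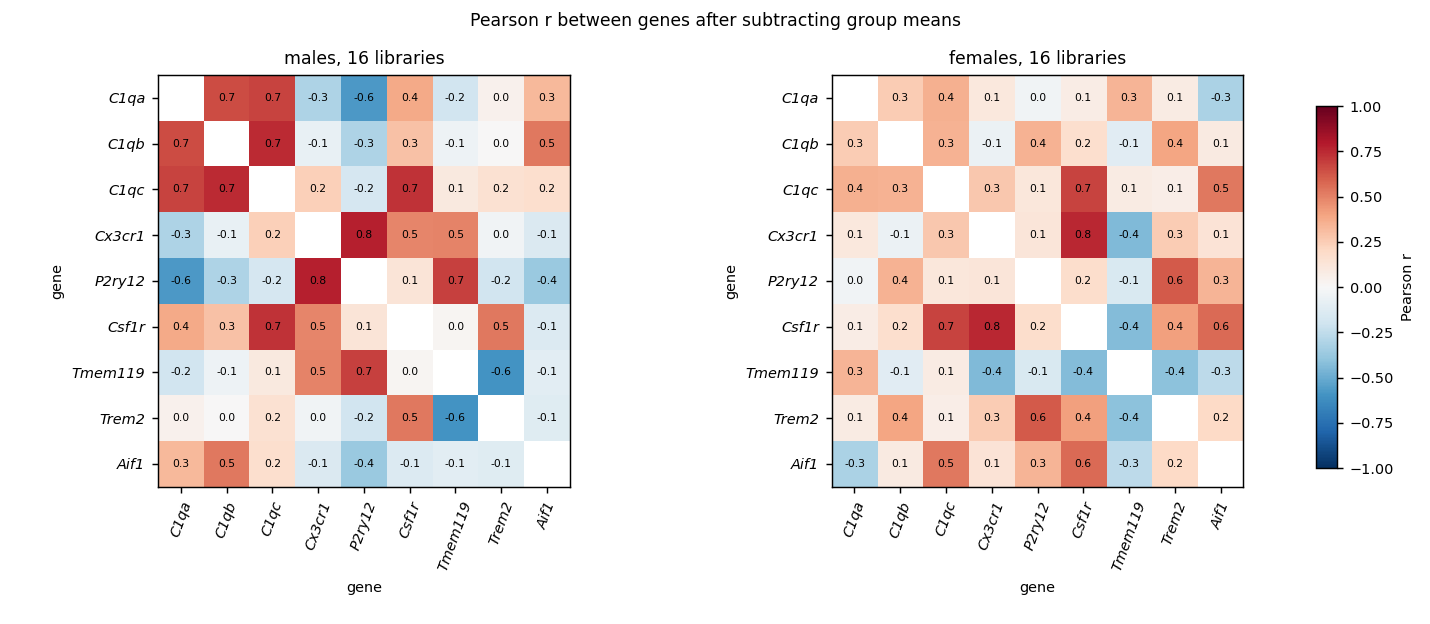
Pearson's r between the 9 genes after subtracting group means, over 16 male libraries (left) and 16 female libraries (right), from -1 (blue) to 1 (red). The C1q genes form a red corner in males (0.65 to 0.74) and a paler one in females (0.25 to 0.35).

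Lists of other genes were counted at the same criterion, which 4.62%, 8.06%, 6.12% and 13% of all genes met in males and 6.47%, 10.3%, 8.98% and 12.7% in females, in FID, ISch and FIDch against IS and FIDch against FID. Of a list of 30 further microglia genes, 25 or 26 were tested in each male comparison and 28 in each female one. In males, counts at the criterion were 1 higher in FID against IS (Ptprc, 0.52 ± 0.19), 1 lower in ISch against IS (P2ry13, -0.47 ± 0.20), 0 in FIDch against IS and 1 higher in FIDch against FID (Rgs10, 0.22 ± 0.08). P2ry13 stood at -0.27 and missed the criterion without the 3 male libraries with names of another form, and Rgs10 stood at 0.16 and missed it without FID replicate 4. In females they were, of 28 each, 0 higher and 2 lower in FID against IS (6.47% of all genes), 1 and 2 in ISch against IS (10.3%), 1 and 2 in FIDch against IS (8.98%) and 2 and 4 in FIDch against FID (12.7%). Mertk, a receptor for the uptake of dying cells, was lower in female FID than IS (-0.36 ± 0.08) and higher in FIDch than FID (0.29 ± 0.10). Ctss, a lysosomal protease, was lower in female FIDch than in IS (-0.26 ± 0.06) and than in FID (-0.28 ± 0.08), and Tyrobp, the signalling partner of Trem2, was lower in FIDch than in FID (-0.42 ± 0.13). Of these named genes in females, Rgs10 alone had an adjusted p under 0.05, in ISch against IS (0.26 ± 0.06, adjusted p = 0.0337 by edgeR's quasi-likelihood test and Benjamini-Hochberg adjustment). Which cells the reads of Rgs10 and Mertk came from was not tested.

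The other genes of the complement cascade and its regulators numbered 46 in the list, of which 26 to 30 were tested. In males 0 of 26 met the criterion in FID against IS, 2 higher in ISch against IS, neither of which met it without the 3 libraries, and 0 of 27 in FIDch against IS. In male FIDch against FID, Cfp met the criterion at 0.37 ± 0.16. In females 2 of 29 were higher in FID against IS (6.47% of all genes), 2 higher and 1 lower of 29 in ISch against IS (10.3%), 4 and 4 of 30 in FIDch against IS (8.98%), and 3 and 5 of 29 in FIDch against FID (12.7%). Cfp, which stabilizes the alternative pathway, rose in female ISch (0.84 ± 0.17, adjusted p = 0.0296 by edgeR's quasi-likelihood test and Benjamini-Hochberg adjustment). Cd59, which blocks the membrane attack complex, rose in female FIDch against IS (0.37 ± 0.04, adjusted p = 0.00473 in the same test of edgeR) and against FID (0.31 ± 0.05, adjusted p = 0.0144 in the same test of edgeR). C3, the central protein that C1q acts through, fell in female FIDch against FID (-0.71 ± 0.16, adjusted p = 0.0479 by edgeR's quasi-likelihood test), as did Sez6, a neuronal complement regulator (-0.41 ± 0.05, adjusted p = 0.00273 by edgeR's quasi-likelihood test). Without the FID library that held Y-linked reads, the adjusted p in the same test of edgeR was 0.0544 for Cd59 and 0.125 for C3 against FID, and that of Sez6 was 0.0114.

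Neurons express relatives of C1q that act at synapses, the C1q-like proteins, cerebellins and C1q and TNF related proteins. Of 17 such genes, 11 were tested in each male comparison, where 1 was lower in FID against IS and 2 in ISch against IS (C1ql2 at -0.23 ± 0.09 and C1qtnf2 at -0.73 ± 0.26), and 0 met the criterion in FIDch against IS or FID. Without the 3 male libraries, C1ql2 at -0.22 and C1qtnf2 at -0.66 missed the criterion. In females 2 were higher and 1 lower of 15 in FID against IS (6.47% of all genes), 3 and 5 of 15 in ISch against IS (10.3%), 2 and 4 of 15 in FIDch against IS (8.98%), and 0 and 4 of 14 in FIDch against FID (12.7%). In female ISch, C1ql2, a protein of granule cell synapses, rose (0.51 ± 0.08, adjusted p = 0.0103 by edgeR's quasi-likelihood test), Cbln1 rose (0.77 ± 0.13, adjusted p = 0.0172 by edgeR's quasi-likelihood test) and C1ql1 fell (-0.43 ± 0.08, adjusted p = 0.0240 by edgeR's quasi-likelihood test). In female FIDch against FID, Cbln2 fell (-0.71 ± 0.12, adjusted p = 0.0147 by edgeR's quasi-likelihood test) and C1qtnf4 fell (-0.50 ± 0.11, adjusted p = 0.0460 by edgeR's quasi-likelihood test). These became 0.0513 and 0.0766 in that test of edgeR without the FID library that held Y-linked reads.

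Ligands and partners of the receptors, such as the Csf1r ligands Csf1 and Il34 and the Cx3cr1 ligand Cx3cl1, gave 0 higher and 2 lower of 17 in male FID against IS, 0 in ISch against IS, 1 higher in FIDch against IS and 0 in FIDch against FID. In females they gave 0 higher and 2, 1, 0 and 1 lower in the same order of comparisons. The shares of all genes at the criterion were 4.62%, 8.06%, 6.12% and 13% in males and 6.47%, 10.3%, 8.98% and 12.7% in females, in that order. Tyrobp is on this list and on that of further microglia genes, so its lower value in female FIDch against FID counts in both. Genes of microglial activation gave 0 in males in FID, ISch and FIDch against IS and 1 higher (Cyba, 0.54 ± 0.24) and 1 lower (Tlr2, -0.56 ± 0.19) in FIDch against FID, of which Cyba missed the criterion without FIDch replicate 2 (0.50) or without FID replicate 4 (0.55). In females 1, 2 and 2 were lower in FID, ISch and FIDch against IS and 2 were higher and 3 lower in FIDch against FID, of 21 or 22 tested. RT1-Bb, an antigen-presenting class II gene of low level, fell in female ISch (-2.57 ± 0.36, adjusted p = 0.00705 by edgeR's quasi-likelihood test), from 1.17 ± 0.276 CPM (SD, n = 4) in IS to 0.193 ± 0.0776 CPM (SD, n = 4). Lpl, a lipase that averaged 103 CPM over the female libraries, fell in female ISch (-0.35 ± 0.07, adjusted p = 0.0307 by edgeR's quasi-likelihood test). Which cells its reads came from was not tested.

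Markers of perivascular macrophages were counted as well. Of 10 genes, 9 were found, and in females 2 of 6 tested were higher in ISch against IS (10.3% of all genes at the criterion), 1 of 7 in FIDch against IS (8.98%) and 4 of 6 in FIDch against FID (12.7%), with Stab1 at 0.91 ± 0.19 (adjusted p = 0.0335 by edgeR's quasi-likelihood test) in the latter, where it was 0.105 without the FID library that held Y-linked reads. Their sum, of which Maf was the most abundant, was 16.6, 16.7, 14.3 and 14.5 CPM in IS, 18.5, 18.7, 17.7 and 17.9 CPM in ISch, 15.0, 14.9, 14.8 and 15.8 CPM in FID and 17.9, 20, 17.1 and 18.3 CPM in FIDch. Both choline groups lay above both groups without choline, with no overlap. Maf alone averaged 7.79 CPM over the female libraries. Cx3cr1 lay the other way, except that ISch replicate 1 (22.1 CPM) was above FID replicate 2 (21.9 CPM). The part of perivascular macrophages in the result was not tested. In female FID against IS 1 of 6 was lower (Mrc1, -0.52 ± 0.23), which missed the criterion without FID replicate 2 (-0.57). Of the markers, Ms4a7 had 0 counts in 8 female libraries and at most 8 in the others, while Mrc1 and Lyve1 had at least 20 in each. In males the sum lay between 14.9 and 27.8 CPM, and 1 gene of 6 was lower in ISch against IS (F13a1, -1.11 ± 0.32), which kept the criterion without the 3 libraries.

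Blood genes, with Hba-a2 the most abundant, summed to 208, 151, 86.9 and 153 CPM in female IS, 150.3, 261, 188 and 249 CPM in ISch, 139.9, 161, 208 and 193 CPM in FID and 125, 130.3, 98.3 and 312 CPM in FIDch. The groups overlapped, and 2 of 5 tested were higher in ISch against IS (10.3% of all genes at the criterion). The part of the blood genes in the lower P2ry12, Cx3cr1 and C1qc was not tested. Of the genes listed for lymphocytes, Gzmb had no read in any library and Cd3d, Cd3g, Cd2 and Nkg7 had at most 3 counts. Cd4 and Cd3e of that list were counted in all libraries, with 17 to 129 and 12 to 218 counts. Cd4 was lower in female ISch than IS (-0.45 ± 0.19), and which cells its reads came from was not tested. Among monocyte and neutrophil genes Ly6c had no read, Elane at most 1 count and S100a8 at most 4, while Csf3r was counted in all libraries, with 14 to 44 counts in males and 58 to 125 in females. Csf3r met the criterion in female FIDch against IS (0.32 ± 0.11). It was the 1 gene higher there of 2 tested from that list, against 8.98% of all genes at the criterion. Which cells its reads came from was not tested. Cx3cr1 was lower in that comparison, and the part of Csf3r in that result was not tested. Choroid plexus genes summed to 431 CPM in male FID replicate 4 and to at most 23.3 CPM in the other male libraries, with Otx2 at 0 throughout, and their part in the lower C1qc and C1qb of that library was not tested. In females their sum was 20.2 CPM in FID replicate 3 and 5.33 to 11.2 CPM in the other 15 libraries, with Ttr the most abundant. Of 5 choroid plexus genes tested in females, 1 was lower in FID against IS (6.47% of all genes at the criterion) and 0 met it in ISch against IS (10.3%). In FIDch against IS (8.98%) 2 were lower (Ttr, -1.05 ± 0.27, and Aqp1, -0.99 ± 0.42). In FIDch against FID (12.7%) 1 was lower (Ttr, -1.69 ± 0.57). Ttr in female FID read 14.5 CPM in replicate 3 and 2.11, 2.72 and 3.79 CPM in replicates 1, 2 and 4. Its value in FIDch against FID thus leaned on FID replicate 3. Cx3cr1 was lower in female FIDch against IS and against FID, and the part of these genes in that was not tested.

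Prox1, a marker of dentate granule cells, had at least 426 counts in every library, while Fibcd1, a marker of CA1, had 0 in 5 male and 2 female libraries. For astrocytes, oligodendrocytes, excitatory neurons and interneurons, at most 4 genes of any list met the criterion in a comparison. The 4 were astrocyte genes of 12 in female FIDch against FID, 3 higher and 1 lower (12.7% of all genes at the criterion). Of the genes for hippocampal fields, 4 of 11 were higher and 1 lower in female ISch (10.3% of all genes at the criterion) and in female FIDch against IS (8.98%). In female FIDch against FID 2 of 12 were higher (12.7%). C1ql2 is on this list and on that of the C1q relatives, so its rise in female ISch counts in both. Cx3cr1 was low in these 3 comparisons. Dsp, a desmosomal gene of granule cells, rose in all 3 (2.87 ± 0.17, 2.81 ± 0.19 and 2.95 ± 0.19, with adjusted p of 0.0000273, 0.000110 and 0.0000433 by edgeR's quasi-likelihood test). Prox1 rose in ISch against IS (0.39 ± 0.07, adjusted p = 0.0227) and FIDch against FID (0.39 ± 0.05, adjusted p = 0.00559 by edgeR's quasi-likelihood test) and stood at 0.30 ± 0.07 in FIDch against IS. Of the genes for neighbouring regions 3 of 10 were lower in female FIDch against FID (12.7% of all genes at the criterion). Endothelial and pericyte genes gave 3 higher and 1 lower of 12 in male FIDch against FID (13% of all genes). Oligodendrocyte genes gave 2 higher and 1 lower of 12 there, both lists beside the higher C1qc and C1qb. The part of these lists in the results was not tested.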

How the data were processed

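RNA of hippocampus was measured in 32 libraries made with the TruSeq RNA v2 kit. The authors trimmed reads with Trimmomatic, aligned them with HISAT2 to Rnor_6.0 and counted them with featureCounts. The raw counts that the authors deposited, 1 table for each sex, were used. Genes passing filterByExpr were fitted for each pair of groups in edgeR 4.0.16 under R 4.3.3, with TMM normalization and the quasi-likelihood F test, and p-values were adjusted by Benjamini-Hochberg over all genes tested. Interactions used 16 libraries, and differences between the sexes used both tables. Members of each group were also compared by exact permutation of CPM. The alternatives were RLE size factors, library size alone, DESeq2 1.42.0, other filters on low counts, all 4 groups in one fit, a replicate block, leaving out each library and leaving out the 3 male libraries with names of another form, the last chosen after seeing the data, as were those for the differences between the sexes. Named genes of the other lists were refitted without the libraries that stood apart, a choice also made after seeing the data. Replicates differed by chi-square per gene of 2.02 to 25.2 over 48 pairs, the highest 3 being those of female FIDch replicate 4, and a count of 0 allows up to 3 counts. Of each other list, the members at the criterion could be named, at most the 3 with the smallest p per comparison, with the 10 genes most like the members. The members and lists were chosen with earlier results of these data known. The code was tested on simulated data.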

Additional observations from a re-analysis of the deposited data

Results flagged for a closer look

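In 72 groups of 4 libraries, 2 held a library with a wide gap to its nearest neighbour, where chance gives about 1 in 20. Tmem119 in female IS replicate 3 was lowest, with a gap of 0.860 of the range of its group, and Aif1 in female FID replicate 1 was lowest, with 0.867. Of 36 differences between females and males in the log2 fold change, 7 met the criterion by the test of the difference itself, with sex, batch and kit not to be told apart. They were C1qa (-0.36) and Cx3cr1 (-0.27) in ISch against IS, Csf1r (-0.20) in FIDch against IS, and C1qb (-0.28), C1qc (-0.54), C1qa (-0.36) and Csf1r (-0.30) in FIDch against FID.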

How the results depend on the processing

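Of 473 counts and medians over the alternatives, 409 stayed within their limits and 64 moved, the limit being a factor of 1.5 for a count and, for a median, the SD within groups of the mean log2 level of the members. Of the 259 counts among them, 175 were equal to the first fit, 28 differed within the limit, as from 4 to 3 in the difference between the sexes in FIDch against FID, and 56 moved, and of 2331 values of single genes 2208 kept their side of the criterion, 69 lost the call, 54 gained it and 0 called values reversed, while 133 values changed sign. Adjusted p fell under 0.05 in 8 of the 2331. In the counts at the criterion, keeping all genes with at least 1 count gave 1 and a replicate block 2 in male ISch against IS. DESeq2 gave 1 in male FIDch against FID and 1 in the difference between the sexes in ISch against IS, where RLE size factors also gave 1. One fit of the 4 groups gave 1 in male FIDch against FID and 2 in female FIDch against IS, where RLE size factors and a minimum of 1 CPM in 4 libraries gave 2 each. Library size alone gave 0 in the difference in FIDch against IS. Without the 3 male libraries the male interaction gave 2, the median in male ISch against IS was -0.0542 and that of the difference in ISch against IS -0.0715. The cause was not tested. Leaving out each library in turn gave counts, in males, of 0 to 1 (FID against IS), 0 to 3 (ISch against IS), 0 to 1 (FIDch against IS), 0 to 3 (FIDch against FID) and 0 to 1 (interaction). In females it gave 0 to 1, 1 to 4, 1 to 2, 1 to 2 and 0 to 1 in that order, and in the differences between the sexes 0 to 1, 0 to 3, 0 to 2 and 2 to 4. Medians ranged from -0.13 to -0.0362 in female FIDch against IS, from -0.18 to -0.0836 in female FIDch against FID and from -0.19 to -0.0748 in the difference in ISch against IS. Replicate numbers carried no visible pairing, since r between the same numbers ran from -0.16 to 0.23 and the own number was best in 7 of 32. Limits are 4 rats a group, the lower male depth, which leaves Trem2 with 26 to 73 counts, and sex, batch and RNA isolation kit in one. A p that misses the threshold does not show equal levels.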
